A study of Homo sapiens with 4 samples.

Results

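The long non-coding RNAs (lncRNAs) followed here in human neuroblastoma cells were MALAT1, NEAT1, GAS5, SNHG1, SNHG5, DANCR, KCNQ1OT1, MEG3, H19 and CASC15. They were chosen by name, as the rows of the deposited count table whose gene symbol was one of these. No threshold on a measured value was applied, but earlier results of these data were known when the choice was made. All 10 were found, 1 row each, among the 24014 genes of the table. The cells were SK-N-SH, an established neuroblastoma cell line in which adrenergic, neuroblast-like cells grow beside flat mesenchymal ones. RNA-seq was performed to ask which transcripts change when the lncRNA AP1AR-DT is raised in these cells. The control group (n = 2 libraries) was wild type SK-N-SH given a lentiviral vector without insert, and the AP1AR-DT_OE group (n = 2 libraries) was SK-N-SH given a recombinant lentivirus carrying the lncRNA AC109347.1, another name of AP1AR-DT. Every group therefore carried a lentiviral vector, and no untransduced cells were compared. For AP1AR-DT_OE 2 the genotype and treatment labels give the name AC109347.2 while its title gives AC109347.1, and the title was followed. The sources used here do not say whether the transduced cells were 1 clone or a mixed culture, nor whether libraries of a group came from separate cultures, so the p-values measure only the spread between these samples, which may be technical.

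The chosen lncRNAs act at different places in the cell. MALAT1 accumulates in nuclear speckles, the stores of splicing factors, and NEAT1 is the scaffold on which paraspeckles assemble. GAS5, SNHG1, SNHG5 and DANCR are spliced RNAs whose introns carry small nucleolar RNAs (snoRNAs), the guides that direct modification of ribosomal RNA. The spliced hosts are read by ribosomes and many are short-lived because nonsense-mediated decay removes them. KCNQ1OT1, MEG3 and H19 are made from 1 parental allele only, at imprinted clusters on chromosomes 11 and 14. CASC15 lies at a chromosome 6 locus known for its link to neuroblastoma risk.

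Annotated ends are printed here for some of these RNAs. Mature MALAT1 and long NEAT1 do not end in a poly(A) tail but in an A-rich tract written in the genome, which folds back into a triple helix and is freed where a tRNA-like element is cut off. The bases up to the last copy of AAAAAGCAAAA, the tract both RNAs share, are printed here for the canonical transcripts of GENCODE v44 mapped to GRCh37, with the tract in capitals and only the transcript strand searched.
MALAT1: ttttctagcttaaaaaaaaAAAAAGCAAAA
NEAT1: ctgtgaaagagtgagcaggAAAAAGCAAAA
In NEAT1 the tract was the very end of the 22743-base transcript and occurred 1 time. In MALAT1 it was the last of 2 copies and ended at base 8477 of 10434, so the annotated transcript ran on beyond it. Of 254413 annotated transcripts, 0.526% held these letters anywhere and 63, or 0.0248%, held them in their last 30 bases.

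Many hosts of snoRNAs belong to the genes whose RNAs open with a cytosine followed by a run of pyrimidines, the 5′ terminal oligopyrimidine tract that ties translation to growth. The first 25 bases are printed for the annotated transcript with the longest such run, in capitals, of GAS5 and SNHG5, the hosts that differed most between libraries.
GAS5: CTTTTCgaggtaggagtcgactcct
SNHG5: CTTTTacgtcggccttcgcgagcgt
A transcript was counted where it opened with C and at least 4 more pyrimidines. This held for 50 of 91 annotated GAS5 transcripts (54.9%), 3 of 89 for SNHG5, 1 of 80 for SNHG1 and 1 of 14 for DANCR, against 2.59% of all transcripts. A match of letters is a description of the annotation, in which many listed transcripts may not start at the true 5′ end, and not a measurement in these cells.

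The libraries held between 21988065 and 26184599 counts, and between 19833 and 21280 genes had a count above 0. AP1AR-DT itself had 3 and 18 counts without the insert and 680 and 1065 with it, a Log2FC of 6.63 (SE = 0.64, DESeq2 Wald test, adjusted p = 3.64e-21), although the edgeR quasi-likelihood test gave an adjusted p = 0.39 for it. Of 10 adrenergic markers, 9 averaged 50 or more normalized read counts and TH has no row in the table, and all 9 mesenchymal markers reached that level. The summed adrenergic level was 25146 to 31346 in the controls and 27584 to 30110 in the AP1AR-DT_OE libraries, and the mesenchymal sum was 123159 to 156594 against 131540 to 151951. No leukocyte, epithelial or endothelial marker reached 50. The controls differed from each other more than a control did from the AP1AR-DT_OE library of the same number, with a chi-square per gene of 144 between controls, 63.7 between AP1AR-DT_OE libraries, 25.8 within number 1 and 32.1 within number 2, so no library was a copy of another.

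None of the 10 lncRNAs passed the test for a change with AP1AR-DT overexpression. The DESeq2 Wald test over all genes called 0 of 10 at an adjusted p under 0.05, against 33 of 24014 genes (0.137%), of which 20 were higher (0.0833%) and 13 lower (0.0541%) in AP1AR-DT_OE. At an unadjusted p under 0.05 the members again numbered 0, against 0.816% of genes. The edgeR test called 0 of the 8 members it could test, but it called 0 of all 17027 genes tested. AP1AR-DT was among those genes, so this 0 does not bear on the members. A mean of 50 or more normalized read counts, the level from which values are compared here, was reached by 8 lncRNAs, with Log2FC from -0.45 for H19 to 0.18 for SNHG5 and a median of 0.03, where the median of the 13298 genes at that level was -0.02. In none of these 8 did the groups separate. Of genes at that level, 9.45% had groups that did not overlap (5.11% with both AP1AR-DT_OE libraries above both controls and 4.35% with both below). With a share this low, 0 of 8 does not set the members apart. In bulk RNA, fewer cells of a type and less RNA per cell cannot be told apart. What the libraries did show was a spread between the controls of 1.78-fold or more, in either direction, for 6 of the 8, and each lncRNA is given with its libraries first for that reason.

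**Figure D1:**
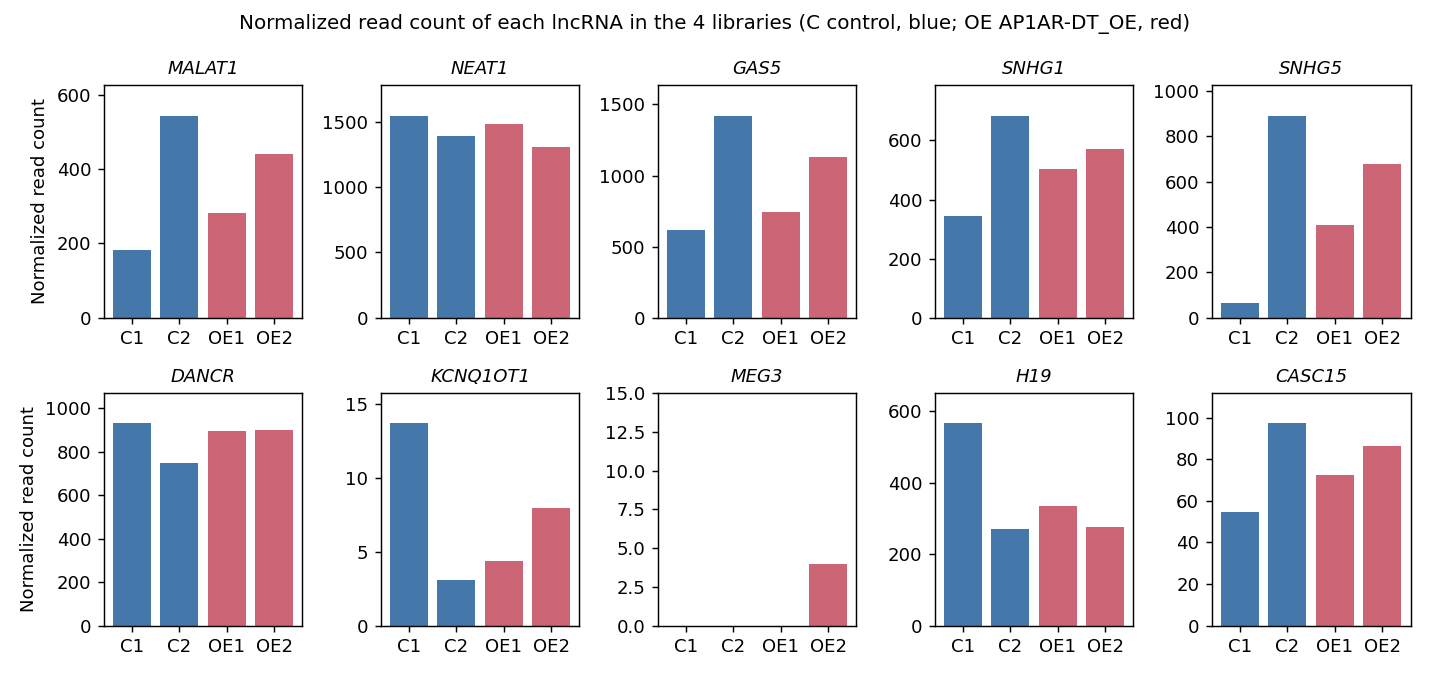
Normalized read count (counts divided by the size factor, linear axis from 0, a separate scale for each RNA) of the 10 lncRNAs in control 1 and 2 (blue, C1 and C2) and AP1AR-DT_OE 1 and 2 (red, OE1 and OE2), 1 bar per library. MALAT1, GAS5, SNHG1, SNHG5 and CASC15 have control 1 lowest and control 2 highest with both AP1AR-DT_OE libraries between them, and no library of KCNQ1OT1 or MEG3 exceeds 13.7.

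MALAT1 (ENSG00000251562; chromosome 11, 65497688 to 65506516, plus strand, GRCh38) is an abundant, stable nuclear RNA. It had 159 counts in control 1, 706 in control 2, 256 in AP1AR-DT_OE 1 and 445 in AP1AR-DT_OE 2. After normalization these were 181, 545, 281 and 442. Control 1 was the lowest and control 2 the highest library, and both AP1AR-DT_OE libraries lay between them. The group means were nearly equal, 363 ± 257 (SD, n = 2) in control and 361 ± 114 (SD, n = 2) in AP1AR-DT_OE, a Log2FC of -0.01 (SE = 0.61, 95% interval -1.20 to 1.18, DESeq2 adjusted p = 1.00). Control 2 was 3.01-fold above control 1, a larger ratio than that of 92.1% of the 13220 genes compared, and AP1AR-DT_OE 2 was 1.57-fold above AP1AR-DT_OE 1. The sign of the fold change followed the library left out: it was 1.01 without control 2 and 0.28 without AP1AR-DT_OE 1, and -0.60 and -0.39 without the others. TALAM1, the antisense RNA of the locus, has no row in the table, and whether counting used strand is not given in the sources used here.

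NEAT1 (ENSG00000245532; chromosome 11, 65422774 to 65445540, plus strand) lies beside MALAT1 and builds paraspeckles with its long isoform. It was counted 1360 and 1802 times in control 1 and 2 and 1356 and 1320 times in AP1AR-DT_OE 1 and 2. The normalized read counts were 1549 and 1390 against 1487 and 1310, so NEAT1 was the steadiest of the 8 together with DANCR and its groups overlapped. The mean was 1469 ± 112 (SD, n = 2) in control and 1399 ± 125 (SD, n = 2) in AP1AR-DT_OE, with a Log2FC of -0.07 (SE = 0.44, 95% interval -0.93 to 0.79, adjusted p = 1.00). The interval leaves room for a change of either sign. Leaving out control 1 gave 0.008 and leaving out AP1AR-DT_OE 2 gave 0.006, both next to 0. The gene-level count adds the short and the long isoform, which overlap over the whole of the short one, so the isoforms were not told apart.

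GAS5 (ENSG00000234741; chromosome 1, 173858559 to 173868882, minus strand) is a growth-arrest RNA that carries box C/D snoRNAs in its introns. Its counts were 541 in control 1, 1844 in control 2, 677 in AP1AR-DT_OE 1 and 1136 in AP1AR-DT_OE 2. Normalized, they were 616, 1422, 743 and 1128, again with the AP1AR-DT_OE libraries between the controls. The means were 1019 ± 570 (SD, n = 2) and 935 ± 272 (SD, n = 2), a Log2FC of -0.13 (SE = 0.53, 95% interval -1.17 to 0.92, adjusted p = 1.00). Control 2 exceeded control 1 by 2.31-fold and AP1AR-DT_OE 2 exceeded AP1AR-DT_OE 1 by 1.52-fold. Without control 2 the Log2FC was 0.61, without AP1AR-DT_OE 1 it was 0.14, and without control 1 it was -0.61.

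SNHG1 (ENSG00000255717; chromosome 11, 62851984 to 62855953, minus strand) hosts a row of box C/D snoRNAs and is often raised in tumours. Control 1 and 2 had 301 and 887 counts, and AP1AR-DT_OE 1 and 2 had 458 and 576, or 343 and 684 against 502 and 572 after normalization. Both AP1AR-DT_OE libraries fell inside the range of the controls. The mean was 514 ± 241 (SD, n = 2) in control and 537 ± 49.0 (SD, n = 2) in AP1AR-DT_OE, a Log2FC of 0.06 (SE = 0.52, 95% interval -0.95 to 1.08, adjusted p = 1.00). Without control 1 it was -0.35, without AP1AR-DT_OE 2 it was -0.05, and without control 2 it was 0.66.

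SNHG5 (ENSG00000203875; chromosome 6, 85650491 to 85678932, minus strand), a host of box C/D snoRNAs whose printed start opens with CTTTT, had the widest spread. There were 58 counts in control 1, 1156 in control 2, 373 in AP1AR-DT_OE 1 and 682 in AP1AR-DT_OE 2, or 66.1, 892, 409 and 677 after normalization. Control 1 stood far below the other libraries. Control 2 was 13.5-fold above control 1, and only 26 of the 13220 genes had a larger ratio, whereas AP1AR-DT_OE 2 was 1.65-fold above AP1AR-DT_OE 1. With the groups at 479 ± 584 (SD, n = 2) and 543 ± 189 (SD, n = 2), the Log2FC was 0.18 (SE = 1.49, 95% interval -2.74 to 3.11, adjusted p = 1.00).

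The result for SNHG5 turned on which control was kept. Against control 1 alone, with control 2 left out, the Log2FC was 3.05. The lone control was assumed to vary like the AP1AR-DT_OE libraries, so no call is read from that fit. Against control 2 alone the Log2FC was -0.72, and without AP1AR-DT_OE 2 it was -0.25. SNHG5 shares exon bases on its own strand with 2 annotated genes, the pseudogene PKMP3 and ENSG00000271793. With their counts added, the sums were 69 in control 1, 1160 in control 2, 422 in AP1AR-DT_OE 1 and 685 in AP1AR-DT_OE 2. ENSG00000271793 had counts in control 1 and AP1AR-DT_OE 1 only, 11 and 49. The other 15 snoRNA host RNAs at a level of at least 50 had log2 ratios of control 2 over control 1 between -0.61 and 0.63, against 3.75 for SNHG5.

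DANCR (ENSG00000226950; chromosome 4, 52712325 to 52723623, plus strand) is known for holding back differentiation and hosts a snoRNA, SNORA26, and a microRNA. It had 817 counts in control 1, 973 in control 2, 816 in AP1AR-DT_OE 1 and 909 in AP1AR-DT_OE 2. The normalized values, 931 and 751 against 895 and 902, put the AP1AR-DT_OE libraries within the controls. The mean was 841 ± 127 (SD, n = 2) in control and 899 ± 5.06 (SD, n = 2) in AP1AR-DT_OE, with a Log2FC of 0.10 (SE = 0.45, 95% interval -0.79 to 0.98, adjusted p = 1.00) that was -0.04 without control 2. Adding the rows of SNORA26 and the microRNA MIR4449 gave 824, 976, 820 and 913 counts, almost the values of DANCR alone.

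**Figure D2:**
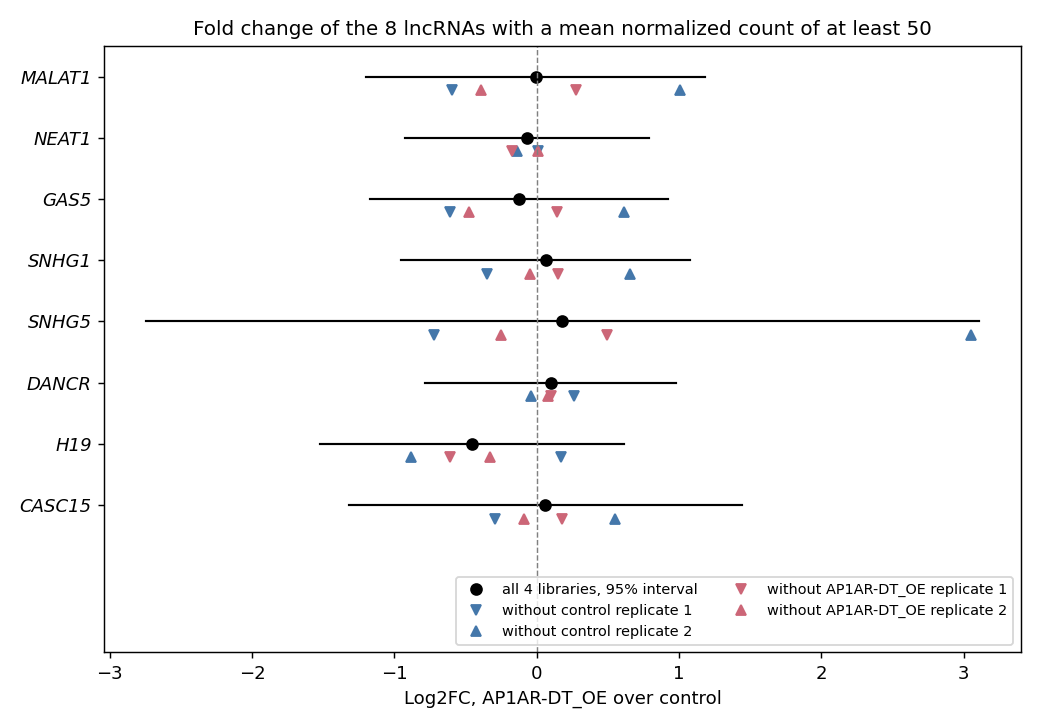
Log2FC of AP1AR-DT_OE over control (x axis) for the 8 lncRNAs that averaged 50 or more normalized read counts. Black points with bars give the fit to all 4 libraries and its 95% interval, and triangles give the fits that leave out 1 library. Every bar crosses 0, the SNHG5 bar runs from -2.74 to 3.11, and without control replicate 2 the SNHG5 value is 3.05.

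Of the imprinted RNAs only H19 was at a level that could be compared. H19 (ENSG00000130600; chromosome 11, 1995176 to 2001470, minus strand) is expressed from the maternal allele, is high in fetal tissue and carries a microRNA. It had 497 counts in control 1, 351 in control 2, 306 in AP1AR-DT_OE 1 and 277 in AP1AR-DT_OE 2. These were 566, 271, 336 and 275 after normalization. Control 1 was the highest library here, the reverse of GAS5, SNHG1 and SNHG5, and control 2 was level with AP1AR-DT_OE 2. H19 had the largest fold change between the groups among the 8, in either direction, and the lowest unadjusted p of all members: 418 ± 209 (SD, n = 2) in control and 305 ± 42.9 (SD, n = 2) in AP1AR-DT_OE, a Log2FC of -0.45 (SE = 0.54, 95% interval -1.52 to 0.61, unadjusted p = 0.406 and adjusted p = 1.00 by the DESeq2 test). The lower value rested on control 1, since the Log2FC was 0.17 without it and -0.88 without control 2.

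KCNQ1OT1 and MEG3 were not measurable at this depth. KCNQ1OT1 (ENSG00000269821; chromosome 11, 2608328 to 2699994, minus strand), the paternally expressed antisense RNA that silences its cluster, had 12 counts in control 1, 4 in control 2, 4 in AP1AR-DT_OE 1 and 8 in AP1AR-DT_OE 2. MEG3 (ENSG00000214548; chromosome 14, 100779410 to 100861031, plus strand), a maternally expressed RNA with growth-suppressing activity, had 0 counts in 3 libraries and 4 in AP1AR-DT_OE 2. Since a read pair was worth about 4 counts, the 3 read pairs that an observation of 0 allows correspond to 12 counts, and every value of both RNAs lay at or under that floor. No fold or direction is read for them. KCNQ1OT1 runs through an intron of KCNQ1, a potassium channel gene on the other strand that had 47, 55, 42 and 63 counts, and shares 121 exon bases with it.

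CASC15 (ENSG00000272168; chromosome 6, 21664185 to 22654455, plus strand) had the fewest counts of the 8. Control 1 and 2 gave 48 and 126 counts, and AP1AR-DT_OE 1 and 2 gave 66 and 87, or 54.7 and 97.2 against 72.4 and 86.4 after normalization. The AP1AR-DT_OE libraries lay between the controls. The mean was 75.9 ± 30.1 (SD, n = 2) in control and 79.4 ± 9.87 (SD, n = 2) in AP1AR-DT_OE, a Log2FC of 0.06 (SE = 0.70, 95% interval -1.32 to 1.44, adjusted p = 1.00). It was -0.29 without control 1 and -0.09 without AP1AR-DT_OE 2. At about 4 counts per read pair these are few pairs. NBAT1, the antisense neighbour that shares 227 exon bases with CASC15, has no row in the table.

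Levels were compared between the lncRNAs only per length, as the mean normalized read count of the 4 libraries per kb of the longest annotated transcript. On this scale GAS5 was the highest at 311 ± 117 (SD over the 4 libraries). H19 at 151 ± 58.1, DANCR at 143 ± 13.3 and SNHG1 at 139 ± 37.9 came next and did not differ from each other beyond their spread. SNHG5 followed at 88.6 ± 61.8, and its spread took in both the group above it and NEAT1 at 63.1 ± 4.63. MALAT1 stood at 34.7 ± 15.6 and CASC15 at 14.4 ± 3.40, and each was lower than its upper neighbour by more than the larger SD of the pair. KCNQ1OT1 and MEG3, from counts at or under the floor, came to 0.0793 and 0.0764, and to 10.7 and 1.57 per kb of the canonical transcript. Among the 4138 lncRNA rows of the table GAS5 ranked 50, H19 149, MALAT1 546 and CASC15 1040, while KCNQ1OT1 and MEG3 ranked 4127 and 4129. MALAT1 stood near the middle of all genes, above 51.9% of them, and GAS5 above 80.2%. The label of abundant RNAs was borne out on this scale by GAS5, H19, DANCR and SNHG1 more than by MALAT1, and KCNQ1OT1 and MEG3 were not abundant in these cells. How well the library method recovered RNAs without a poly(A) tail, as mature MALAT1 and long NEAT1 are, was not tested.

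The order depended on the length used, because the hosts have many annotated isoforms, whereas the lengths used for MALAT1 and NEAT1 were nearly the same. The short isoform of NEAT1 was not used as a length. Per kb of summed exon length GAS5 stayed first at 198, with SNHG1 at 132, H19 at 105, DANCR at 85.4, NEAT1 at 63.0, SNHG5 at 40.5, MALAT1 at 34.7 and CASC15 at 2.12. Per kb of the shorter canonical transcript GAS5 reached 1272, SNHG1 452, SNHG5 388, H19 327 and DANCR 220, and MALAT1, at 34.7, came below CASC15 at 57.5. GAS5 was first on all 3 scales.

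**Figure D3:**
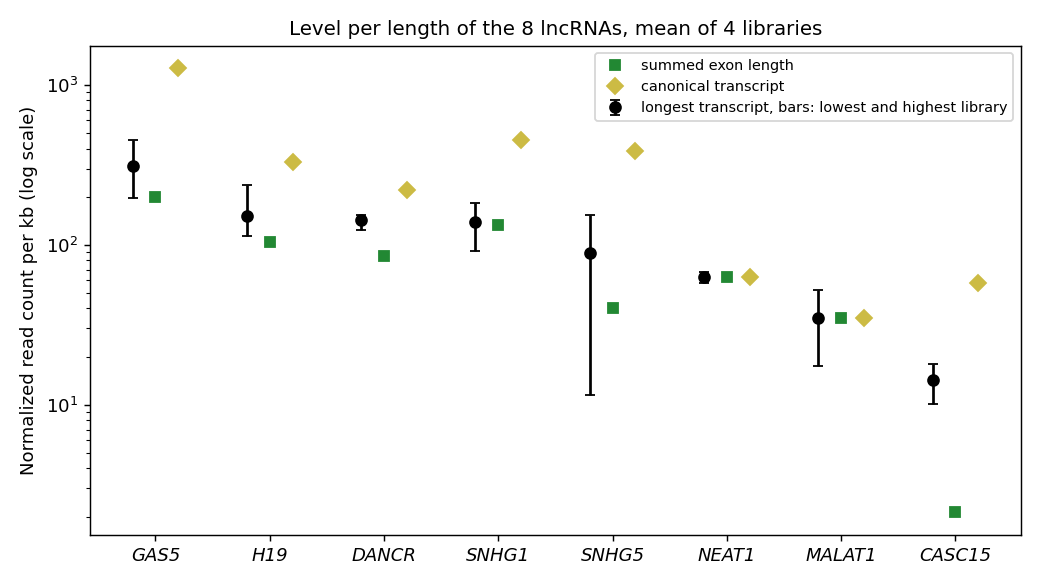
Mean normalized read count per kb over the 4 libraries (log axis) of the 8 lncRNAs, by longest transcript (black, bars from the lowest to the highest library), summed exon length (green squares) and canonical transcript (yellow diamonds). GAS5 is highest by each length (311, 198 and 1272), and CASC15 moves between 2.12 and 57.5.

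The same order of libraries recurred across roles. In MALAT1, GAS5, SNHG1, SNHG5 and CASC15 the normalized read count rose from control 1 through AP1AR-DT_OE 1 and AP1AR-DT_OE 2 to control 2, so 5 of the 8 (62.5%) had this order against 20.0% of all genes at that level, while 26.1% of genes had it from high to low. The rising order made the same 5 higher in AP1AR-DT_OE than in control among the libraries numbered 1 and lower among those numbered 2. This is no second observation, and that pattern held for 27.9% of genes. H19 had the high-to-low order, and DANCR and NEAT1 had neither. The median absolute log2 ratio of control 2 over control 1 was 1.03 for the 8 and 0.72 for all genes, and that of AP1AR-DT_OE 2 over AP1AR-DT_OE 1 was 0.27 for the 8 and 0.42 for all genes.

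GC content moved with this order. Of the 8 lncRNAs, 7 had a longest transcript of lower GC content than the median gene (49.0%), from 39.2% in GAS5 to 44.1% in NEAT1, and H19 at 63.6% was richer in GC than 93.8% of genes. These values depend on the transcript chosen. The canonical transcript had 46.0% in GAS5, 46.5% in SNHG5, 47.2% in CASC15, 47.6% in DANCR, 44.1% in SNHG1 and 58.0% in H19. MALAT1 and NEAT1 kept their values. The comparisons and the correction below use the longest transcript only and were not repeated with the canonical one. Across the 8, the ratio of control 2 over control 1, on the log2 scale, was lower at higher GC content (Spearman's rho = -0.81, and -0.88 for AP1AR-DT_OE 2 over AP1AR-DT_OE 1). Across all genes at that level the first of these was -0.77. The points share the same libraries and base composition, so these are descriptions. Among the 3261 genes with a GC content of 39 to 45% the rising order was found in 41.5%, and among the 2025 genes of 60% or more in 0.247%. The 5 lncRNAs with the rising order were all among the 7 of 39.2 to 44.1%, so 5 of 7 is to be read against the 41.5%.

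When the smoothed GC trend of each library was taken out, 2 of the 8 had the rising order, against 10.2% of genes. The log2 ratio of control 2 over control 1 became 0.07 in GAS5, 0.15 in SNHG1, -0.09 in CASC15 and -0.29 in H19, from 1.21, 1.00, 0.83 and -1.06. MALAT1 went from 1.59 to 0.71. NEAT1 and DANCR, which differed little before, went to -0.79 and -0.97, since they did not follow the trend of genes of like GC content. SNHG5 remained apart: the trend gave 1.03 for its GC content, and 2.73 was left, above 99.7% of genes. The median absolute ratio of the 8 was 0.50 after correction, against 0.33 for all genes.

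**Figure D4:**
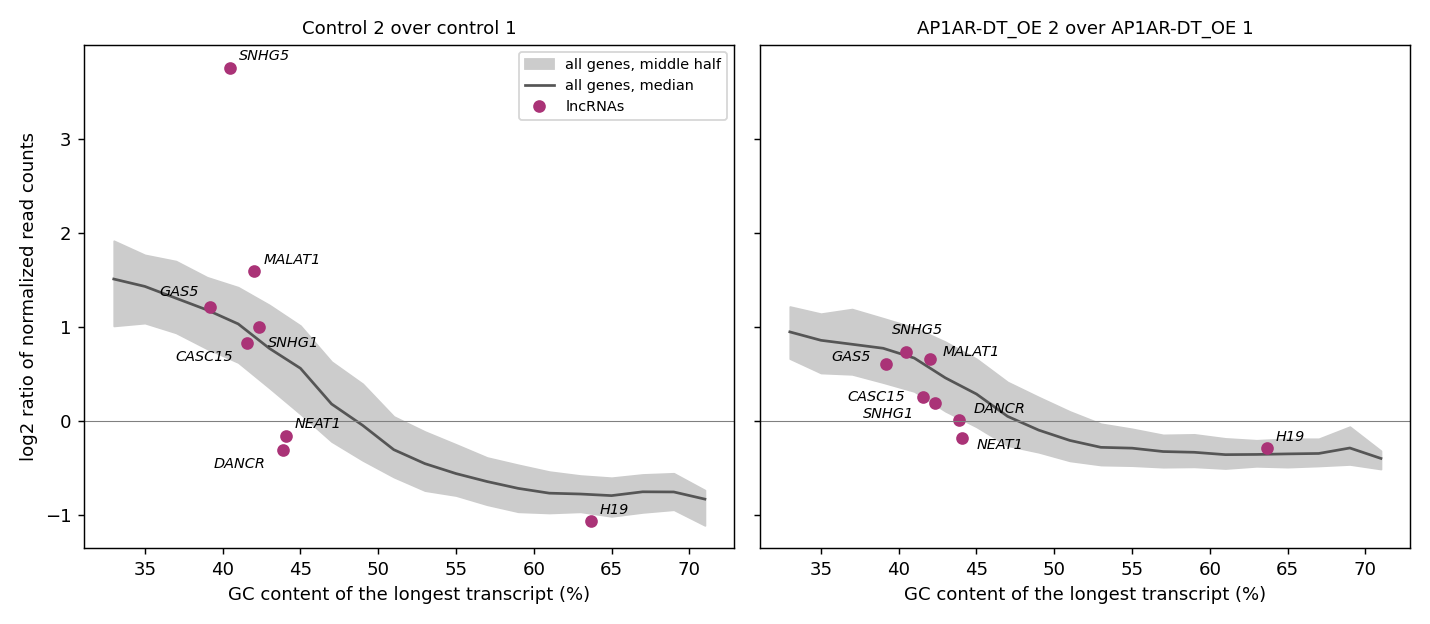
Log2 ratio of normalized read counts between the libraries of a group (y axis; left, control 2 over control 1; right, AP1AR-DT_OE 2 over AP1AR-DT_OE 1) against GC content of the longest transcript in percent, for the 8 lncRNAs (points) and all genes (line, median; grey, middle 50% of genes in bins of GC content). The ratio falls with GC content in both panels, H19 lies low at the right, and SNHG5 at 3.75 lies far above the grey band in the controls and at 0.73 inside it in the AP1AR-DT_OE libraries.

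The partners of these RNAs were read from 9 lists of genes, and no gene of any list passed the DESeq2 test in either direction, nor had an unadjusted p under 0.05. For the snoRNA hosts, 15 of 19 other host RNAs with a row were at a level of at least 50, with a median Log2FC of 0.02, from -0.17 for SNHG25 (SE = 0.75) to 0.30 for ZFAS1 (SE = 0.64). The 8 core proteins that package snoRNAs had a median of 0.02, from -0.28 for NHP2 (SE = 0.60), which belongs to the box H/ACA particle, to 0.12 for its partner GAR1 (SE = 0.50). The 16 factors of nonsense-mediated decay, the route that degrades spliced hosts, had a median of -0.01. SMG1, the kinase that starts decay by phosphorylating UPF1, was lowest at -0.33 (SE = 0.47), with 475 and 403 normalized read counts below the 568 and 535 of the controls, and UPF3B, an adaptor at exon junctions, was highest at 0.26 (SE = 0.71). Groups did not overlap in 1 of these 16, 2 of the 8 core proteins and 2 of the 15 hosts. The share was 9.45% of all genes at a level of at least 50.

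For the nuclear body RNAs, 21 paraspeckle proteins had a median of -0.03 and 21 nuclear speckle proteins one of -0.10. SS18L1 was the lowest paraspeckle protein at -0.32 (SE = 0.63). RBM12 was the highest at 0.99 (SE = 3.64), a value that came from 0 counts in control 2 beside 1598 in control 1 and 1625 and 1846 in the AP1AR-DT_OE libraries. Among speckle proteins SON, the core of the speckle, was lowest at -0.30 (SE = 0.45), and PNN, a splicing-associated protein, was highest at 0.40 (SE = 0.54), with 202 and 228 normalized read counts above the 156 and 170 of the controls. Groups did not overlap in 1 of the 21 speckle and 0 of the 21 paraspeckle genes, against the 9.45% of all genes. The rising order of libraries was found in 8 of the 21 paraspeckle and 11 of the 21 speckle genes, and in 2 of the 15 other host RNAs. Its share was 20.0% of all genes at a level of at least 50, and 41.5% of those with a GC content of 39 to 45%. The median GC content was 40.4% in the speckle list, 45.5% in the paraspeckle list and 48.1% in the other hosts. The speckle count is therefore to be read against the 41.5%.

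The 12 genes next to MALAT1 and NEAT1 had a median of 0.02, from -0.10 for ZNRD2 (SE = 0.70) to 0.45 for TIGD3 (SE = 0.69). These neighbours had a median GC content of 61.3%. Of the 12, 10 had the falling order of libraries, the opposite of MALAT1 in the same stretch of chromosome 11. Of all genes at a level of at least 50, 26.1% had the falling order, and its share among genes of like GC content was not computed.

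For the imprinted RNAs, 8 of 9 listed genes of Polycomb proteins and G9a-type methyltransferases were measured. Their products are known to be drawn to imprinted clusters. The median of these 8 was 0.01, from -0.15 for SUZ12 (SE = 0.66) to 0.31 for EED (SE = 0.75). EHMT2, the gene of G9a itself, had no row. The 10 measured neighbours of H19, KCNQ1OT1 and MEG3 had a median of 0.05, from -0.13 for RTL1 (SE = 0.69) to 0.25 for TSSC4 (SE = 0.51). Named for their place beside the members and with their values known, IGF2, the fetal growth factor reciprocal to H19, had 0, 4, 11 and 4 counts, all under the floor while H19 was well measured, and DLK1, the paternal partner of MEG3, had 177, 96, 107 and 156 counts where MEG3 was at or under it. The 4 measured neighbours of CASC15 had a median of -0.11, from -0.28 for SOX4 (SE = 0.56), a transcription factor of neural progenitors, to 0.10 for MBOAT1 (SE = 0.51).

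**Figure D5:**
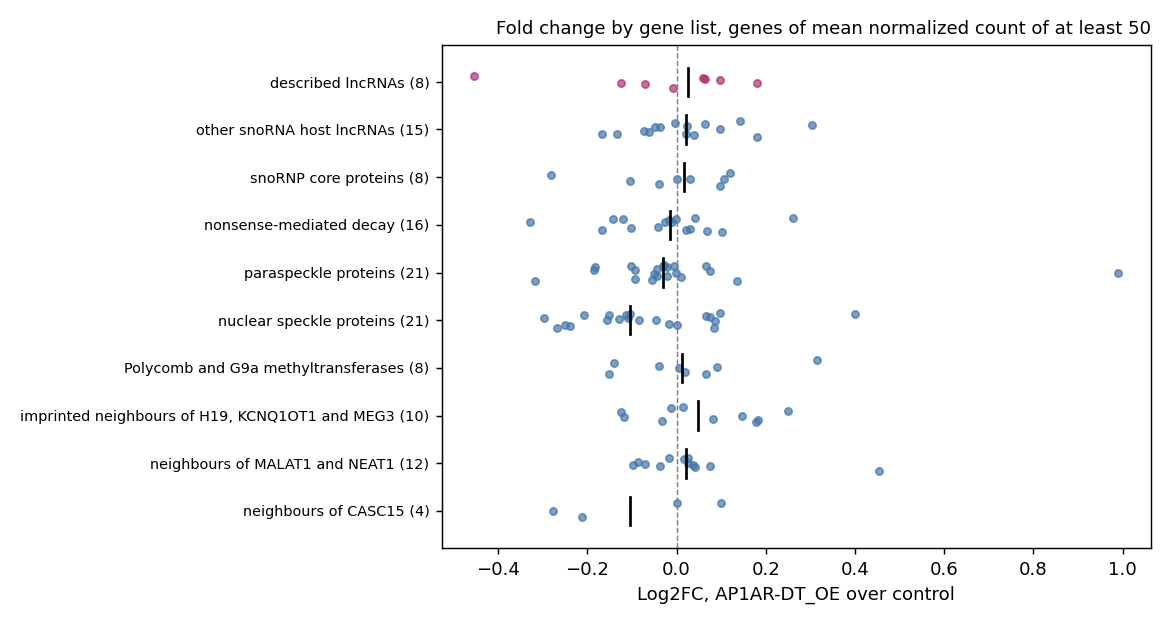
Log2FC of AP1AR-DT_OE over control (x axis) for the 8 lncRNAs (purple) and the genes of 9 lists (blue) that averaged 50 or more normalized read counts, 1 point per gene, black bars for the medians and the number of genes in brackets. The medians lie between -0.11 and 0.05, and the point at 0.99 is RBM12, whose count in control 2 was 0.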

How the data were processed

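RNA was taken with Trizol and made into libraries with the Illumina TruSeq RNA kit, per the labels. The authors deposited raw read counts per gene, whole numbers with no normalization. The paper's methods name HISAT2, hg19 and StringTie, whereas the submitters' processing notes name TopHat2 2.0.4, HTSeq, Cuffdiff, SAMtools and edgeR 2.6.12, so the tool that made the counts is uncertain. The annotation and the use of strand are not given in the sources used here. Gene coordinates are those of the table (GRCh38). The 11 columns of the authors' own tests (DESeq2 and edgeR fold changes and p-values) were not used. Low values piled up at 4 (3287 entries, against 2136 at 3 and 1509 at 5), so a read pair was taken as about 4 counts and the floor as 3 pairs, 12 counts. Floors cover counting error only, since PCR copies are not independent molecules.

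Counts of all 24014 genes were fitted with DESeq2 1.42.0 in R 4.3.3 (medians of ratios, Wald test, no covariate, two-sided, Benjamini-Hochberg over all genes). The threshold for a call was an adjusted p under 0.05. Normalized read counts are counts divided by size factors of 0.878 to 1.30, given as mean ± SD (n = 2), and 95% intervals are 1.96 SE. Samples were grouped by their titles. Alternatives were edgeR 4.0.16 (quasi-likelihood, TMM), TMM factors in DESeq2, a minimum of 10 counts, the likelihood-ratio test, independent filtering switched off, counts divided by 4, a block for the replicate number, a GC correction (lowess, span 0.3) with and without the block, leaving out each library, and other gene lengths. The procedure was tested on simulated data. GC content, lengths, overlaps and sequences came from GENCODE v44 on GRCh37, in which 23954 of the gene IDs were found. The members, lists and alternatives were chosen with earlier results of these data known. Beside the members and AP1AR-DT, the genes named were those of each list that were called and the highest and lowest Log2FC among genes averaging 50 or more normalized read counts, and genes that overlap or adjoin a member.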

Additional observations from a re-analysis of the deposited data

How the results depend on the processing

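No alternative that kept all 4 libraries called any of the 10 lncRNAs, but the number of genes called over the whole table moved. It was 33 as reported, 0 by the edgeR quasi-likelihood test (where 112 had an unadjusted p under 0.05), 55 with the GC correction, 15 when counts were divided by 4, and 24 to 37 under the others except the fit named next. AP1AR-DT had a Log2FC of 6.60 by edgeR and was no longer called, and 6.02 to 8.05 with a library left out. No list gene was called under the edgeR, GC or block alternative. The libraries of a number deviated together (correlation 0.49 of deviations from the group means), but the labels tie nothing to the number. With the replicate block 37 genes were called, 16 of them among the 33, and with the GC correction and the block together 60, of which 20 were. SNHG5 had a Log2FC of 1.11 with the block, 0.61 with the GC correction and 1.18 with both, against 0.18 as reported, and was not called. MALAT1 had 0.15 with the block, 0.17 with the GC correction and 0.21 with both. GAS5 had 0.042 with the GC correction and 0.040 with both.

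With a library left out, the Log2FC ran from -0.60 to 1.01 for MALAT1, -0.17 to 0.0082 for NEAT1 (0.0059 without AP1AR-DT_OE 2), -0.61 to 0.61 for GAS5 (0.14 without AP1AR-DT_OE 1), -0.35 to 0.66 for SNHG1 (-0.05 without AP1AR-DT_OE 2), -0.72 to 3.05 for SNHG5 (-0.25 without AP1AR-DT_OE 2), -0.040 to 0.26 for DANCR, -1.14 to 1.00 for KCNQ1OT1, -0.88 to 0.17 for H19 and -0.29 to 0.55 for CASC15 (-0.09 without AP1AR-DT_OE 2). MALAT1 had 0.28 without AP1AR-DT_OE 1. The fitted values of KCNQ1OT1, at or under the floor in every library, are not read as folds. No p-value is read from these fits, and the canonical length was chosen after seeing the data. KCNQ1OT1 and MEG3 gave no value by edgeR or with the 10-count minimum. The cause of these shifts was not tested.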
